A study of Mus musculus with 5 samples.

Results

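Potassium channel genes were examined for NEUROD2 binding in the cerebral cortex of newborn mice. The 42 genes were listed by symbol. They encode voltage-gated (Kcna, Kcnb, Kcnc, Kcnd, Kcnh), Kcnq, inwardly rectifying (Kcnj), leak (Kcnk) and calcium-activated (Kcnma, Kcnmb, Kcnn) channels, together with the Kcnip genes for cytoplasmic subunits of Kcnd channels. All 42 symbols were found among the 21911 protein-coding genes of the GENCODE M21 annotation of GRCm38 (mm10). For each gene, binding sites were counted that overlapped the gene body extended by 10 kb on both sides, called the gene window here.

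ChIP-Seq recovers and sequences the DNA fragments that an antibody pulls down with a protein. NEUROD2 was precipitated from P0 cortex of untreated BALB/c mice with 3 antibodies, with 1 library per antibody, and a precipitation with a GFP antibody from the same strain, age and tissue served as the control of the peak calling. Cortices of littermates were pooled, and the sources do not say whether each antibody had its own pool, so the spread between antibodies may be technical. A shared site below is an entry of the authors' deposited table of regions bound with all 3 antibodies (2071 sites), and a merged site is a region of overlapping peaks of any antibody (12637 sites).

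Potassium channels let potassium leave or enter the cell and so set the resting potential, the shape of the action potential and the rate of firing. Their genes fall into families by what opens the channel: membrane potential, G proteins, intracellular calcium or no particular trigger. NEUROD2 is a basic helix-loop-helix transcription factor of excitatory cortical neurons, and such factors bind E-boxes, DNA elements with the letters CANNTG.

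NEUROD2 binding shared by all 3 antibodies was present at 9 of the 42 potassium channel genes: Kcnb2, Kcnc4, Kcnh8, Kcnq3, Kcnj6, Kcnj9, Kcnn2, Kcnn3 and Kcnip1. This was 21.4%, against 7.48% of all protein-coding genes, and genes of similar length gave 6.42 in place of 9. Kcnq3 had 2 shared sites and the other 8 genes had 1 each, 10 in all. The highest scoring sites lay in the first introns of Kcnn3, which encodes a small-conductance calcium-activated channel, and of Kcnq3, which encodes a subunit of the channels of the M-current. Of the 10 sites, 7 lay in introns, 1 in a coding exon, 1 at an internal promoter and 1 past the end of a gene.

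The sequences at the centre of 6 of these sites are shown because they span the range of scores from the highest (Kcnn3) to the lowest (Kcnb2), include both sites of the gene with a pair of them (Kcnq3), and include the site outside a gene body (Kcnc4). Each is the central 200 bp of the site on the plus strand of GRCm38, and capitals mark every E-box (CANNTG, a motif that reads as CANNTG on both strands, with overlapping matches counted separately). None overlaps an annotated coding or untranslated part of an exon. The sites of Kcnn2, Kcnh8, Kcnj9 and Kcnip1 are not shown and held 1, 1, 1 and 2 E-boxes in the same window, against 1 to 5 in those shown.
Kcnn3, chr3:89540103-89540302: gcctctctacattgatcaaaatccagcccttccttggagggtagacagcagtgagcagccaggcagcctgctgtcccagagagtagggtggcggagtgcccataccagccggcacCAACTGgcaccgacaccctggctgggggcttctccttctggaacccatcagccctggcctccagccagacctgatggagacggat
Kcnq3, higher scoring site, chr15:66239270-66239469: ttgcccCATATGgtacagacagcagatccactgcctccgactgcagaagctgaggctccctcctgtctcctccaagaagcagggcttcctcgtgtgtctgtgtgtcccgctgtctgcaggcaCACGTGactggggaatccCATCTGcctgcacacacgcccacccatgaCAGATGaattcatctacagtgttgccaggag
Kcnc4, chr3:107431459-107431658: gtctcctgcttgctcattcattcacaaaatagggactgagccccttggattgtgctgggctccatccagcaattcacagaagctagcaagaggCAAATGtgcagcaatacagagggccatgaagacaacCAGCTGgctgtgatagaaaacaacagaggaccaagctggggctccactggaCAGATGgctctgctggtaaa
Kcnj6, chr16:94885142-94885341: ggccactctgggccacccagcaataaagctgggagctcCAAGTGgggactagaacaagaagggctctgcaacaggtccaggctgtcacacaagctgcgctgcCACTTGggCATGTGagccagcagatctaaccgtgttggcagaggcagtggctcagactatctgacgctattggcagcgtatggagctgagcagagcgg
Kcnq3, lower scoring site, chr15:66115243-66115442: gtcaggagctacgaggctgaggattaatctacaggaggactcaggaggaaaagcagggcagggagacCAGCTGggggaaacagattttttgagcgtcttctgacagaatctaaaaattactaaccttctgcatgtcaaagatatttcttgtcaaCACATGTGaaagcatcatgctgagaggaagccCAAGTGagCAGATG
Kcnb2, chr1:15651969-15652168: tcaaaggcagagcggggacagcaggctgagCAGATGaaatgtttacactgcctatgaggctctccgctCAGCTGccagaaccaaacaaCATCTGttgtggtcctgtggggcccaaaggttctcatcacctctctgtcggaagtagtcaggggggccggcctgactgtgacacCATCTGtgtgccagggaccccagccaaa

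The share of potassium channel genes with a shared site was 21.4% (9 of 42; 95% Wilson interval 11.7 to 35.9%), and over all protein-coding genes it was 7.48% (1638 of 21911). Potassium channel genes were longer than most genes, with a median of 62767 bp (1902 to 1135406 bp) against 17433 bp, and longer windows meet more sites. When each gene was given the rate of the protein-coding genes of its own length class, out of 20 classes of equal size, 6.42 potassium channel genes with a shared site were obtained, or 15.3%. This value lay inside the interval of the observed share, so a difference from genes of similar length was not detectable with 42 genes. The intervals cover counting error over genes only. They do not cover the choice of the list, which was made with earlier results of these data known. Requiring a score of at least 100 with each antibody left 5 genes (Kcnc4, Kcnip1, Kcnn2, Kcnn3 and Kcnq3), against 3.37 from the length classes and 3.49% of all protein-coding genes, and without antibody 3 there were 13 genes, against 10.3 from the length classes and 13.2% of all protein-coding genes.

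Most of the bound channel genes were in the longest length class, genes of at least 186221 bp. This class held 17 of the 42 genes, of which 6 had a shared site (35.3%, 17.3 to 58.7%), against 298 of 1095 protein-coding genes of the class (27.2%). Of the 25 shorter potassium channel genes, 3 (Kcnc4, Kcnj9 and Kcnn3) had a shared site (12%, 4.17 to 30.0%), against 6.44% of all shorter genes. Per length of window the potassium channel genes had 1.11 shared sites per Mb, and all protein-coding genes had 1.13 per Mb. For merged sites the densities were 6.33 and 7.24 per Mb.

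**Figure D1:**
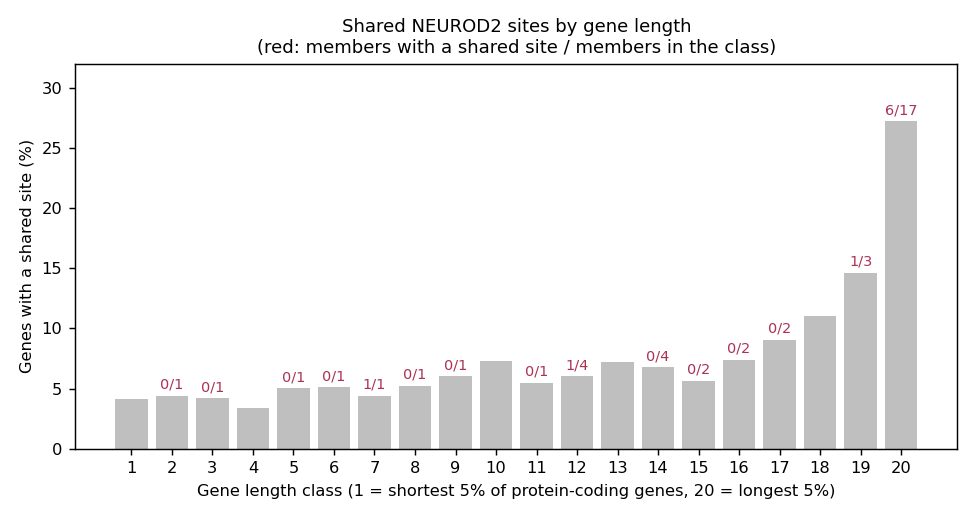
Share of protein-coding genes with a shared NEUROD2 site in the gene body plus 10 kb (vertical axis, percent) in 20 classes of gene length (horizontal axis, shortest to longest), with the number of potassium channel genes with a shared site over their number in the class in red. The share rose to 27.2% in the longest class, where 6 of 17 potassium channel genes had a shared site.

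With each antibody alone, a larger share of potassium channel genes than of all protein-coding genes had a peak, before gene length was taken into account. Antibody 1 had a peak in the windows of 15 genes (35.7%, against 15.4% of all protein-coding genes), antibody 2 in 25 (59.5%, against 33.1%) and antibody 3 in 12 (28.6%, against 11.1%). The order of the 3 antibodies was that of their list sizes, 5202, 11196 and 3164 peaks. A peak of any antibody was found at 26 genes (61.9%, 46.8 to 75%, against 35.2% of all protein-coding genes), and the rate of genes of similar length gave 21.4 genes (50.9%). Because the lists hold only peaks with a MACS score (minus 10 times the log10 of p) of at least 50 and give no read counts, the depth is unknown, and a gene without a peak had no peak above this threshold, which does not show absence of binding.

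**Figure D2:**
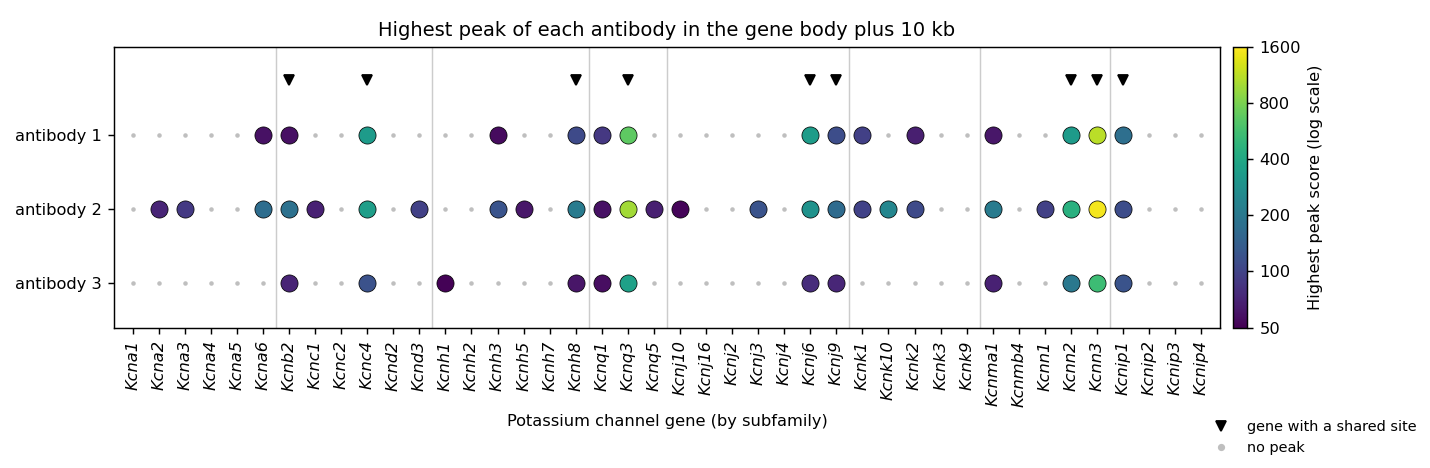
Highest MACS score of each antibody (rows) in the gene body plus 10 kb of the 42 potassium channel genes (columns, grouped by subfamily), on a logarithmic colour scale, with grey dots where no peak was listed and triangles over the 9 genes with a shared site. Antibody 2 had a peak at 25 genes, and the highest scores of all antibodies were at Kcnn3.

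The calcium-activated channels held the highest scoring site. Kcnn2 and Kcnn3 encode small-conductance channels of the afterhyperpolarization, Kcnma1 encodes the large-conductance channel opened by calcium and voltage, and Kcnmb4 encodes an auxiliary subunit of the latter. A shared site was found at 2 of these 5 genes, where the length classes gave 0.825, and a peak of any antibody at 4, where they gave 2.72.

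The Kcnn3 site (chr3:89539883-89540521, 639 bp) scored 1122 with antibody 1, 1506 with antibody 2 and 538 with antibody 3. All 3 scores were high for their antibody, ranking 37th, 36th and 58th among the 2088 merged sites with all antibodies, and the summed score of 3167 in the deposited table ranked 40th of 2071. The site lay in intron 1, 20038 bp downstream of the annotated start of the gene (Kcnn3, ENSMUSG00000000794, chr3:89520164-89675132, plus strand). Its central 200 bp, shown above, held 1 E-box, CAACTG. Kcnn3 had more merged sites than any other potassium channel gene, 6 in all. One of them, 18950 bp from the gene start, had peaks of antibodies 1 and 2 with scores of 54.0 and 81.5, and the other 4 had a peak of a single antibody with scores of 52.3 to 104.

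The Kcnn2 site (chr18:45558774-45560233, 1460 bp) was the longest of the 10, with scores of 332, 448 and 201 for antibodies 1, 2 and 3. It was the only shared site within 1000 bp of a TSS. That TSS, 34 bp from the midpoint, was internal, and the site lay 290643 bp into the gene (ENSMUSG00000054477, 417165 bp) over exon 4 of transcript ENSMUST00000066890. The first promoter of Kcnn2 had a weaker site, 112 bp from its TSS, with scores of 74.9 for antibody 2 and 58.8 for antibody 3 and no peak of antibody 1. A further site, in an intron, had scores of 210 for antibody 1 and 173 for antibody 2 and no peak of antibody 3.

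Kcnma1, the longest of the calcium-activated genes (725061 bp), had no shared site but had 2 sites bound with a pair of antibodies. The site at chr14:24004661-24005205 scored 209 with antibody 2 and 68.8 with antibody 3, and its midpoint was 74 bp from a TSS of Kcnma1 and 58 bp from a TSS of 4930519K11Rik. The other, at chr14:23684494-23684985 in an intron, scored 61.5 with antibody 1 and 185 with antibody 2. Kcnn1 had 1 peak of antibody 2 (98.4), 2274 bp upstream of its TSS, and Kcnmb4 had none.

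The Kcnq genes encode slowly activating voltage-gated channels, and all 3 listed had at least 1 peak, where the length classes gave 2.14 genes. A shared site was found at 1 of the 3, with 0.816 obtained from the length classes. Kcnq3 (ENSMUSG00000056258, chr15:65986387-66286642, minus strand) was the only potassium channel gene with 2 shared sites, and 223 (1.02%) of all protein-coding genes had 2 or more. Both lay in intron 1, which spans 254365 bp.

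The site of Kcnq3 closer to the gene start (chr15:66239107-66239631, 47273 bp downstream) scored 674, 986 and 360 with antibodies 1, 2 and 3, and its deposited score of 2019.7 ranked 120th of 2071. The other (chr15:66115108-66115576, 171300 bp downstream) scored 200, 234 and 67.7, with a deposited score of 502 at rank 1243. Every antibody gave the closer site the higher score. In the sequences above the closer site held 4 E-boxes, a CAGATG and a CATCTG among them, and the more distant site held 5, with CAGCTG and CAGATG among them. The 2 other Kcnq genes had single-antibody sites only. Kcnq1 had 3, with scores of 87.4 for antibody 1, 58.3 for antibody 2 and 56.9 for antibody 3, the second of them 120 bp from the TSS of the antisense transcript Kcnq1ot1. Kcnq5, 563540 bp long, had 1 peak of antibody 2 (68.1).

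Among the remaining Kv alpha genes (Kcnb, Kcnc and Kcnd), 2 of 6 had a shared site, with 1.21 from the length classes. Kcnc4 encodes a channel of the Shaw-related family, which includes the fast delayed rectifiers of rapidly firing neurons, and Kcnb2 encodes a slower delayed rectifier. The Kcnc4 site (chr3:107431280-107431836) scored 331, 344 and 120 with antibodies 1, 2 and 3, and its deposited score of 794 ranked 634th. It lay 6744 bp past the end of Kcnc4 (chr3:107438303-107459552, minus strand) in intergenic sequence, so it was counted for Kcnc4 through the 10 kb extension. Its central 200 bp held 3 E-boxes, one of the form CAGCTG and one of the form CAGATG.

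The Kcnb2 site (chr1:15651873-15652264) had the lowest deposited score of the 10, 309 at rank 1834. It scored 57.8 with antibody 1, close to the threshold of the list, 180 with antibody 2 and 70.9 with antibody 3, and lay 364814 bp into the gene in intron 2. The central 200 bp of this lowest scoring site held 4 E-boxes, of which 3 were CAGATG or its reverse complement CATCTG and 1 was CAGCTG, while the central 200 bp of the Kcnn3 site, with the highest score, held neither form. Kcnb2 and Kcnc4 also had a peak of antibody 2 at their own promoters, with scores of 162 and 56.2. Kcnc1 had 2 peaks of antibody 2 (66.7 and 68.5) and Kcnd3 had 2 (93.1 and 98.2). Kcnc2 (195904 bp) and Kcnd2 (514303 bp), the latter encoding an A-type channel, had no peak of any antibody.

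Kcnh genes encode channels of the ether-à-go-go family, and 1 of 6 had a shared site, with 1.21 from the length classes. The Kcnh8 site (chr17:52920746-52921098, intron 11, 318213 bp into the gene) scored 109, 208 and 61.0 with antibodies 1, 2 and 3. The peaks of the 3 antibodies overlapped little there, as the stretch covered by all of them was 8 bp, the shortest among the 10 sites (8 to 688 bp). Kcnh3 had a peak of antibody 2 (124) 770 bp from its TSS, a peak of antibody 1 (55.4) in an intron and a peak of antibody 2 (54.5) past its end. Kcnh5 had a promoter peak of antibody 2 (61.8) and Kcnh1 an intronic peak of antibody 3 (50.7). Kcnh7, of 490874 bp, had no peak, and neither did the shorter Kcnh2.

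Of the 7 inward rectifier (Kcnj) genes, 2 had a shared site, with 0.732 from the length classes. Both encode subunits of channels opened by G proteins, Kcnj6 and Kcnj9. The Kcnj6 site (chr16:94885033-94885450, intron 2, 112460 bp from the gene start) scored 335, 290.2 and 77.3 with antibodies 1, 2 and 3, and its deposited score of 703 ranked 762nd. Among the 2088 merged sites with all antibodies it ranked 420th with antibody 1, 1083rd with antibody 2 and 1417th with antibody 3. The Kcnj9 site (chr1:172325843-172326550) scored 111, 166 and 72.7 and lay in coding exon 3 of this short gene of 8818 bp, 1912 bp from the closest TSS.

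Kcnj6 also had an intronic site of antibodies 1 and 2 (59.0 and 233) and a promoter peak of antibody 2 (99.1). Kcnj3, which encodes a partner subunit of Kcnj6 and Kcnj9, had 3 peaks of antibody 2 (51.5, 56.0 and 121). Kcnj10, an inward rectifier of glia, had 1 peak of antibody 2 (52.7). The windows of Kcnj9 and Kcnj10 overlap, but no site was counted for both. Kcnj2, Kcnj4 and Kcnj16 had no peak.

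The Kcnip genes encode calcium-binding proteins that attach to Kcnd channels, and 1 of 4 had a shared site, with 0.695 from the length classes. A peak of any antibody was found at 1 of the 4, where the length classes gave 2.24. The Kcnip1 site (chr11:33772622-33773170, intron 1, 220256 bp from the gene start) scored 176, 112 and 121 with antibodies 1, 2 and 3, and was the site where antibody 2 had the lowest score. Kcnip1 had 3 further merged sites with scores of 52.5 to 68.8. No peak was listed at Kcnip2, Kcnip3 or Kcnip4, of which Kcnip4 (1135406 bp) was the longest of the 42 genes.

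No shared site was found at the 6 Kcna genes, which encode Shaker-related channels of axons and nerve terminals, or at the 5 leak channel (Kcnk) genes. The length classes gave 0.315 and 0.616 genes for these families, so a count of 0 differed by less than 1 gene from the rate of genes of similar length. Kcna6, Kcnk1 and Kcnk2 had a site with peaks of antibodies 1 and 2 but not 3. The scores for antibodies 1 and 2 were 58.3 and 170 at Kcna6 (chr6:126732427-126732838, intron), 96.1 and 98.7 at Kcnk1 (chr8:126035103-126035362, past the end of the gene), and 66.9 and 109 at Kcnk2 (chr1:189217923-189218236, intron). Antibody 2 alone gave promoter peaks at Kcna2 (71.7), Kcna3 (89.4), Kcna6 (59.6) and Kcnk1 (82.4). Its highest score at a potassium channel site without another antibody was 246, at Kcnk10 (chr12:98574251-98575340), 83 bp from a TSS of this gene. Kcna1, Kcna4, Kcna5, Kcnk3 and Kcnk9 had no peak.

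With Kcnc2, Kcnd2, Kcnh2, Kcnh7, the 3 Kcnj genes, the 3 Kcnip genes and Kcnmb4 this made 16 potassium channel genes without a peak. A peak of any antibody was found at 3 Kcna, 4 other Kv alpha (Kcnb, Kcnc and Kcnd), 4 Kcnh, 4 Kcnj and 3 Kcnk genes. The length classes gave 1.69, 3.59, 3.55, 3.02 and 2.41 genes for these families. Across the 8 subfamilies, 6 had at least 1 gene with a shared site, and each family held 3 to 7 genes, too few for a test of a difference between them.

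**Figure D3:**
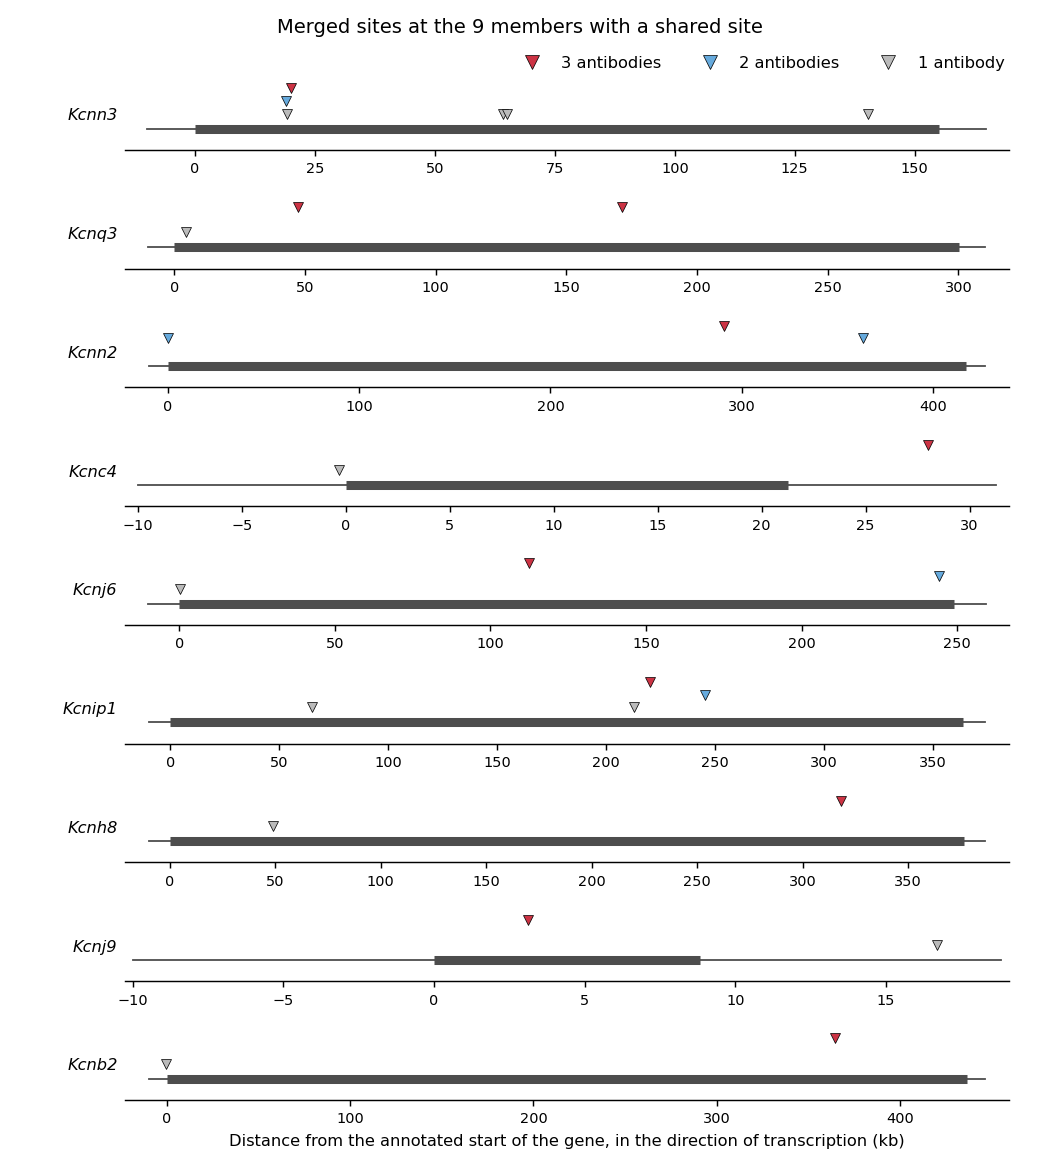
Merged NEUROD2 sites (triangles, placed by distance in kb from the annotated gene start in the direction of transcription) at the 9 potassium channel genes with a shared site, with the gene body as a thick bar and the 10 kb extensions as thin lines; the height and colour of a triangle give the number of antibodies. The sites of 3 antibodies lay inside the gene body at 8 of the 9 genes and 6744 bp past its end at Kcnc4.

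By deposited score the 10 sites ranked from 40th to 1834th of 2071. Their median summed score was 603 (309 to 3167), against 573 for all 2071 sites, and 5 of the 10 lay above the latter. By antibody, the median was 266 against 168 for antibody 1, 262 against 297 for antibody 2 and 98.5 against 104 for antibody 3. Scores were not scaled between antibodies, so they rank sites within an antibody and do not compare antibodies.

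**Figure D4:**
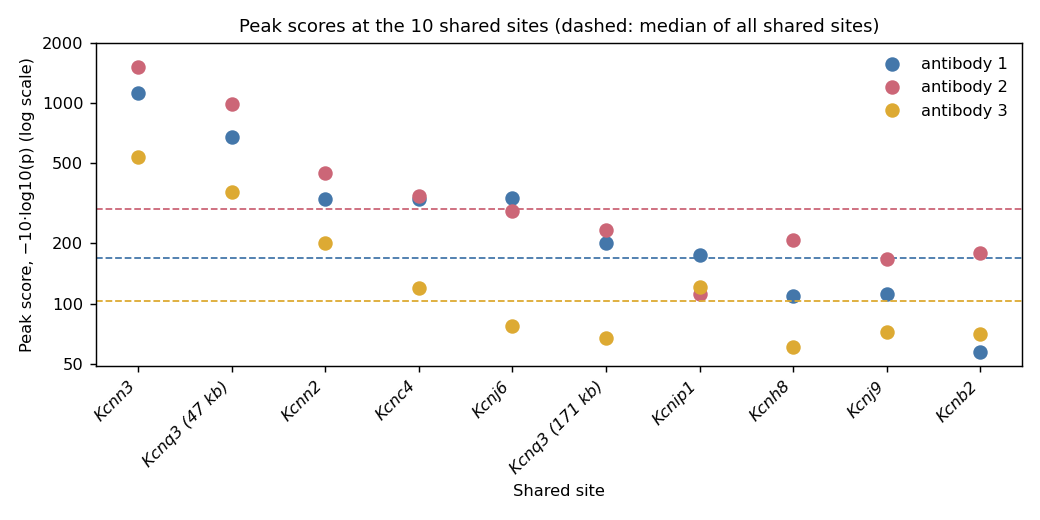
MACS score of each antibody (colours, logarithmic vertical axis) at the 10 shared sites of potassium channel genes (horizontal axis, by deposited score), with dashed lines at the median of each antibody over all merged sites with 3 antibodies. With each antibody the Kcnn3 site had the highest score of the 10.

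The potassium channel sites lay mostly in introns. Introns held 7 of the 10, against 34.9% of all shared sites, and promoters held 1, against 31.1%. A coding exon held the Kcnj9 site (4.15% of all shared sites were exonic) and intergenic sequence the Kcnc4 site (29.9%). The site had to be within 10 kb of a gene body to be counted, which leaves out intergenic sites farther away by construction. Of the 9 genes with a shared site, 6 were in the longest length class. The shares over all shared sites are matched neither for the windows nor for gene length. Whether the location of the sites differed from that at other genes of similar length was not tested.

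Promoter peaks at these genes were seen mainly with antibody 2. Of all merged sites of antibody 2 alone, genome-wide, 47.5% lay within 1000 bp of a TSS of any gene, as did 18 of the 31 at these genes. For merged sites with all 3 antibodies the genome-wide share was 30.9%. A site of any antibody lay within 1000 bp of a TSS of the gene itself at 15 of the 42 genes (35.7%, against 19.6% of all protein-coding genes, with 11.1 genes from the length classes). For a shared site this held for Kcnn2 alone (2.38%, against 2.8%, with 1.76 from the length classes). A site of antibody 2 alone was present at 13 genes (31.0%, against 13.4%, with 7.52 from the length classes), at 15 sites with scores of 52.7 to 246 (median 82.4), 11 of them under 100. The number of distinct annotated TSSs per gene had a median of 3 both in potassium channel genes and in all genes. Of the 57 merged sites at the 42 genes, 31 (54.4%) had a peak of antibody 2 only, as did 52.2% of all merged sites, and 10 (17.5%) had all 3 antibodies, as did 16.5%.

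Summed scores are higher with more antibodies by construction, since each peak adds at least 50. The 37 single-antibody sites at potassium channel genes scored 50.5 to 246 (median 68.5), and 32 of them were under 100. The 10 sites of a pair of antibodies had summed scores of 125 to 383 (median 211), and the 10 shared sites had 309 to 3167. Taking sites with at least 2 antibodies, 13 of the 42 genes were bound (31.0%, against 15.1% of all protein-coding genes), and 11.2 were obtained from the length classes.

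E-boxes were present in the central 200 bp of all 10 shared sites of potassium channel genes, and in 89.4% of all shared sites. They were also present in 66.2% of the 200 bp windows 2000 bp from the edges of all shared sites. The 10 sites held 2.50 ± 1.51 E-boxes (SD, n = 10 sites) and all shared sites 2.45. Windows of the same length 2000 bp from the site edges held 1.95 E-boxes at the potassium channel sites and 1.15 at all shared sites, so the ratio of centre to flanks was 1.28 at the former and 2.14 at the latter. The ratio at the potassium channel sites depended on the windows, and was 2.38 with flanks at 5000 bp and 0.845 when the whole site was counted per length. CAGATG (or its reverse complement) was found at 5 of the 10 sites and at 54.7% of all shared sites, and CAGCTG at 3 of the 10 and at 42%. Either form was found at 5 of the 10 and at 77.1% of all shared sites, and in 23.7% of all flanking windows. Among all shared sites outside promoters, where most of the 10 lay, either form was found at 83.7%. Those sites held 2.815 E-boxes on average, with a ratio of centre to flanks of 2.44. The 5 sites with either form were both Kcnq3 sites and those of Kcnc4, Kcnip1 and Kcnb2. These letters are a description of the window and do not mark a bound base.

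**Figure D5:**
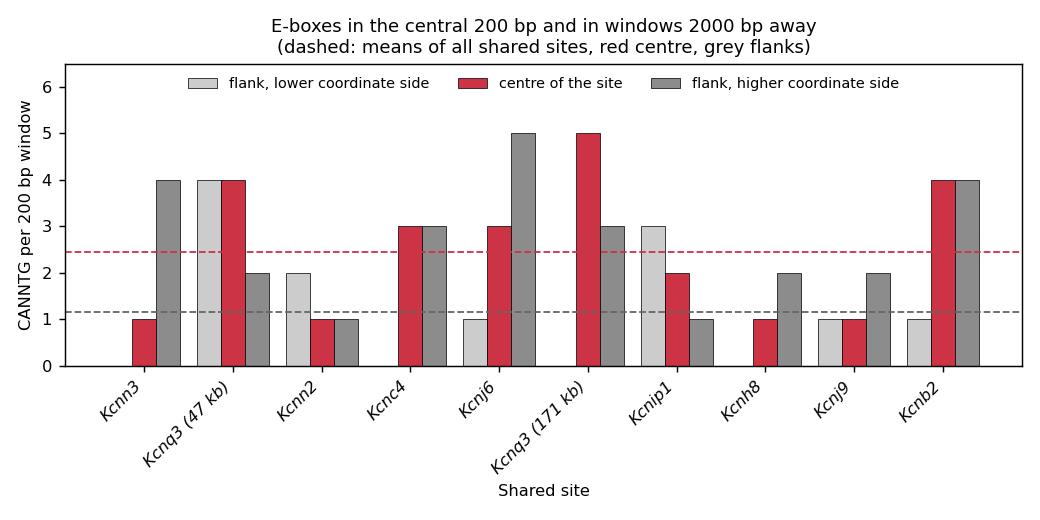
Number of E-boxes (CANNTG) in the central 200 bp (red) of the 10 shared sites of potassium channel genes and in 200 bp windows 2000 bp from each edge (grey), with dashed lines at the means of all shared sites (2.45 in the centre and 1.15 in the flanks). The centre held at least 1 E-box at every site, as did 66.2% of the flanking windows of all shared sites. It held the most, 5, at the lower scoring Kcnq3 site.

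Potassium channel genes outside the list were examined the same way. Of 52 further genes of pore-forming and auxiliary subunits, 4 had a shared site (7.69%, 3.03 to 18.2%, with 4.34 genes from the length classes). These were Kcnk12 with deposited scores of 816 in an exon and 807 past its end, Dpp6 with 546 in an intron, Kcnab1 with 430.4 in an intron, and Kcnj14, whose site (500.4) lay outside the gene at the promoter of Cyth2. Kcnk12 encodes a leak channel subunit, Kcnab1 a cytoplasmic subunit of Kcna channels and Dpp6 a membrane-spanning partner of Kcnd channels. A peak of any antibody was found at 19 of the 52 (36.5%, against 35.2% of all protein-coding genes, with 19.6 genes from the length classes).

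Stim1 and the genes with loci used by the study for ChIP-qPCR were counted in the same way. Neurod6 had 2 shared sites and Bhlhe22, Nrcam, Cux1 and Stim1 had 1 each. Gad1 had 2 peaks of antibody 2 and no shared site, and no peak was listed at Dlx2, Npy, Gsx2 or Calb2, which does not show absence of binding there. By ChIP-qPCR the study reported enrichment at the tested loci of Neurod6, Bhlhe22, Nrcam, Cux1 and Stim1. It reported none at those of Gad1, Dlx2 and Npy, and a slight but significant one at Gsx2 and Calb2.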

How the data were processed

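NEUROD2 ChIP-Seq peaks of P0 mouse cortex were analysed from 3 lists, 1 per antibody. Per the labels and methods, the authors mapped reads to mm10 (GRCm38) with Bowtie and called peaks per antibody with MACS against the GFP reads. The deposited score of each peak is minus 10 times the log10 of p, and the deposited table gives the score summed over the antibodies (equal within 0.01 at all 10 sites described). Read depth is unknown, and input DNA was not used. Precision is therefore limited to counting error over genes.

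From these files, peaks sharing at least 1 bp were merged. Genes of GENCODE M21 were extended by 10 kb, and overlaps were counted. Rates of genes of similar length used 20 length classes. No test was made, since there is 1 condition. Shares carry 95% Wilson intervals. E-boxes were counted in the central 200 bp and in windows 2000 bp from the edges. The counting was tested on simulated data. Software was pandas 2.3.3, pysam 0.24.0, scipy 1.17.1 for intervals, numpy 2.4.6 and, for plots, matplotlib 3.10.9, under Python 3.11.15.

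The members and lists were chosen with earlier results of these data known. Genes named with values were those with a shared site, those with a site of 2 antibodies, those with the highest peaks of antibody 2 alone (up to 5) and the longest without a peak (up to 5). Peaks of other genes were named beside their subfamily after their values were seen. Alternatives changed the window, score threshold, length classes, TSSs and E-box windows, or left out each antibody.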

Additional observations from a re-analysis of the deposited data

How the results depend on the processing

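Of 43 values under alternatives, 31 stayed close to the value reported and 12 moved, that is by more than 1.5 times for a number of genes, subfamilies or sites and by more than 1 SD over the antibodies for the E-box ratio and the median rank. Leaving out each antibody in turn gave 9 to 13 potassium channel genes with a shared site, 6.48 to 10.3 from the length classes and 6 to 8 subfamilies. The share of all protein-coding genes was then 9.65% without antibody 1, 7.57% without antibody 2 and 13.2% without antibody 3, against 7.48% with all of them. Without antibody 1 the gene added was Kcnma1, and without antibody 3 they were Kcna6, Kcnk1, Kcnk2 and Kcnma1. With a score of at least 100 for each antibody, 5 genes had a shared site (3.37 from the length classes), and a peak of that score was found at 8 genes for antibody 1, 15 for antibody 2 and 5 for antibody 3, against 7.18%, 18.4% and 4.13% of all protein-coding genes. The gene body alone gave 8 genes, without Kcnc4, against 5.52 from the length classes and 5.16% of all genes. The body extended by 50 kb gave 13 genes and added Kcnh2, Kcnj10, Kcnj4 and Kcnk1, against 9.14 from the length classes and 15.5% of all genes, and antibody 3 then had a peak at 19 genes, against 22.1% of all genes. The length rate was 5.55 genes with 10 length classes and 6.51 with the 200 genes closest in length. The E-box ratio of 1.28 became 0.845 over the whole sites, 0.890 over the stretch covered by all 3 antibodies and 2.38 with flanks at 5000 bp. Within 2000 bp of a TSS there were 2 shared sites in place of 1. The median rank of the 10 sites, 48.4% from the top by summed score, was 30.6% by antibody 1 alone. The cause of these changes was not tested. No paired analysis was possible because all NEUROD2 libraries belong to 1 condition and no result comes from a test. Read depth per library is unknown, so neither a missing peak nor the different list sizes can be set against depth.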

Other observations

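Of the 57 merged sites at potassium channel genes, 64.9% held CAGATG or CAGCTG in their central 200 bp, against 64.3% of all merged sites. Within these, all 10 sites bound with exactly 2 antibodies held either form, against 73.7% of all such sites, a class chosen after its values were seen. The 10 sites held 2.80 E-boxes on average, against 2.31 for all such sites. Among the 10 shared sites 5 held either form. At these genes 18 sites of antibody 2 alone lay within 1000 bp of a TSS of any gene, 15 of them near a TSS of the channel gene itself. The 18 sites held 0.889 E-boxes per 200 bp with a median GC content of 64.3%. The 13 sites of antibody 2 alone elsewhere held 2.23 E-boxes. Over all merged sites of antibody 2 alone, genome-wide, these means were 1.09 and 2.32. No comparison of these values was tested.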
